A study of Mus musculus with 6 samples.

Results

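Transcript levels of 10 genes of the NF-kappaB system were compared between Hoxa9/IRX3 and Hoxa9/MTV murine acute myeloid leukemia (AML) cells. The 10 are the 5 subunit genes Nfkb1, Nfkb2, Rel, Rela and Relb, the 4 IkB protein genes Nfkbia, Nfkbib, Nfkbie and Nfkbiz, and Tnfaip3, which encodes the ubiquitin-editing enzyme A20. They were picked by name and known role from 41128 genes in the deposited table, by a rule that uses no expression value, although earlier results of these data were known. Rel, which encodes c-Rel, was the only one whose 3 Hoxa9/IRX3 values all lay on one side of the 3 Hoxa9/MTV values. It fell from a mean of 1.19 ± 0.113 to 0.670 ± 0.0691 RPKM (read number divided by gene length in kilobases and by library size; SD, n = 3 mice per cohort), with a limma Benjamini-Hochberg adjusted p of 0.0483 that did not hold under most other settings. Nfkbia, the most abundant, ranged over 7.02-fold among the 6 mice, and its cohorts overlapped. The remaining members overlapped as well, and Relb was close to the limit of detection.

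NF-kappaB is a family of dimeric transcription factors. Rela, Rel and Relb carry their own transactivation domains, whereas the products of Nfkb1 and Nfkb2 are precursors that are processed to the DNA-binding partners p50 and p52. In resting cells the dimers are held in the cytoplasm by IkB proteins. Tumor necrosis factor, interleukin 1 or Toll-like receptor signaling activates the IkB kinase complex, which marks IkB for degradation and releases the dimers to the nucleus, where their targets include the genes of several of their own inhibitors. In myeloid cells the pathway drives inflammatory and survival genes.

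The samples were flow-sorted bone marrow leukemia cells from 6 mice, with 1 library per mouse. Both cohorts were begun with KIT+ bone marrow cells of female CD45.1+ mice aged 6 to 12 weeks that carried a retroviral FLAG-tagged Hoxa9. In the Hoxa9/IRX3 cohort (mice 3.2, 3.3 and 3.5) the cells also received retroviral IRX3 from a human cDNA, and in the Hoxa9/MTV cohort (mice 1.1, 1.2 and 1.4) the empty control vector. The cells were selected with drugs and transplanted into irradiated CD45.2+ C57BL/6 recipients, and donor-derived KIT+Gr1+ cells were sorted from thawed marrow once the recipients were ill. Hoxa9 and IRX3 were thus driven by viral vectors and not by their own loci, and the time from transplantation to sorting was set by illness and not by the design.

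The denominators recovered from the steps between deposited values were 7979246 to 9803621 reads per library. As the check of the labels, the mouse Irx3 gene was listed at 0 in every Hoxa9/MTV library, whereas mice 3.2, 3.3 and 3.5 had 15.1, 0.421 and 0.148 RPKM. That row measures the human cDNA only as far as its reads align to the mouse genome. Hoxa9 was at 174 to 363 RPKM in Hoxa9/MTV and 154 to 242 RPKM in Hoxa9/IRX3. Of the genes behind the sort, Kit was at 2.48 to 3.12 and 1.63 to 2.70 RPKM and Ptprc (CD45) at 1.53 to 1.80 and 1.76 to 2.09 RPKM, respectively. The Gr1 antigens were represented mainly by Ly6c2, at 413 to 479 and 414 to 844 RPKM, while Ly6g was low in Hoxa9/MTV (0.0532 to 0.145 RPKM) and rose in Hoxa9/IRX3 (0.682 to 1.42 RPKM, log2 difference 1.35, limma adjusted p = 0.0205).

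The promoters of several members carry the kappaB consensus, the motif of 10 bases that NF-kappaB dimers bind, and they are shown because expression of these genes is the readout here. In the RefSeq promoter windows of GRCm38.p6, each 300 bases long and ending 50 bases after a transcription start, 7 of the 10 members had an entry, with 10 windows among them. A match on either strand was found in 7 of these windows, belonging to the 5 genes Rel, Nfkb2, Nfkbia, Nfkbie and Tnfaip3, against 8.46% of all 32851 windows in the table. The Nfkb2 windows starting at chr19 positions 46305445 and 46305680 overlapped and shared a match, which counted in both. The windows of Rela and Nfkbib and a further window of Tnfaip3 held no match. The stretch directly upstream of a start is given for each of the 5 genes, 5′ to 3′ on the gene's strand with the matching bases in capitals, and overlapping matches merged. A match is a stretch of letters and was not measured as a binding site.
Rel (chr11:23770970-23771109, minus strand): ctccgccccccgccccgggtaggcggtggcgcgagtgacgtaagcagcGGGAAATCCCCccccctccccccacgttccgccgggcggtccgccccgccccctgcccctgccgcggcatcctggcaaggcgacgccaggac
Nfkb2 (chr19:46304597-46304736, plus strand): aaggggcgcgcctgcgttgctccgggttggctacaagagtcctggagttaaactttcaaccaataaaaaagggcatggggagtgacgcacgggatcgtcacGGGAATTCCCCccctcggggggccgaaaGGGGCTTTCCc
Nfkbia (chr12:55492648-55492787, minus strand): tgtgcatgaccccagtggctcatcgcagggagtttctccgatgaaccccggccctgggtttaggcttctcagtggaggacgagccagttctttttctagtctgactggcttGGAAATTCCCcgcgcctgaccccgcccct
Nfkbie (chr17:45555560-45555699, plus strand): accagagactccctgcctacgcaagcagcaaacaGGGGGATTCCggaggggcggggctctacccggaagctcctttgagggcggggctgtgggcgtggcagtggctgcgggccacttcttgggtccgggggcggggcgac
Tnfaip3 (chr10:19015411-19015550, minus strand): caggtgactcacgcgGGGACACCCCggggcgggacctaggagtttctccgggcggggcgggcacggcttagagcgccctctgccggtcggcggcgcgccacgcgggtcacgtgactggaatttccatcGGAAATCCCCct

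The deposited RPKM divide by the whole gene, introns included, so levels of different genes were compared after the same reads were divided by the exon length of each gene, which treats all reads as exonic. On that scale of RPKM per kilobase of exon, Nfkbia had the highest level in Hoxa9/MTV at 83.9 ± 39.5, followed by Rela at 29.2 ± 2.02 (SD, n = 3 mice). Nfkbib (12.1 ± 1.46) and Nfkb1 (10.7 ± 0.433) came next and their ranges overlapped. Nfkbie (5.45 ± 1.94) overlapped with Rel (4.71 ± 0.446). Tnfaip3 (3.33 ± 0.539), Nfkb2 (3.17 ± 0.813) and Nfkbiz (2.56 ± 1.67) each overlapped with the next, and Relb (0.723 ± 0.208) lay below the rest. In Hoxa9/IRX3 the first 5 places were held by the same genes in the same order, with Nfkbia at 41.4 ± 21.98 overlapping with Rela at 25.4 ± 2.24. Rel stood eighth there, at 2.64 ± 0.273, behind Tnfaip3 (3.34 ± 0.788) and Nfkb2 (2.77 ± 0.658), and its range overlapped with that of Nfkb2.

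**Figure D1:**
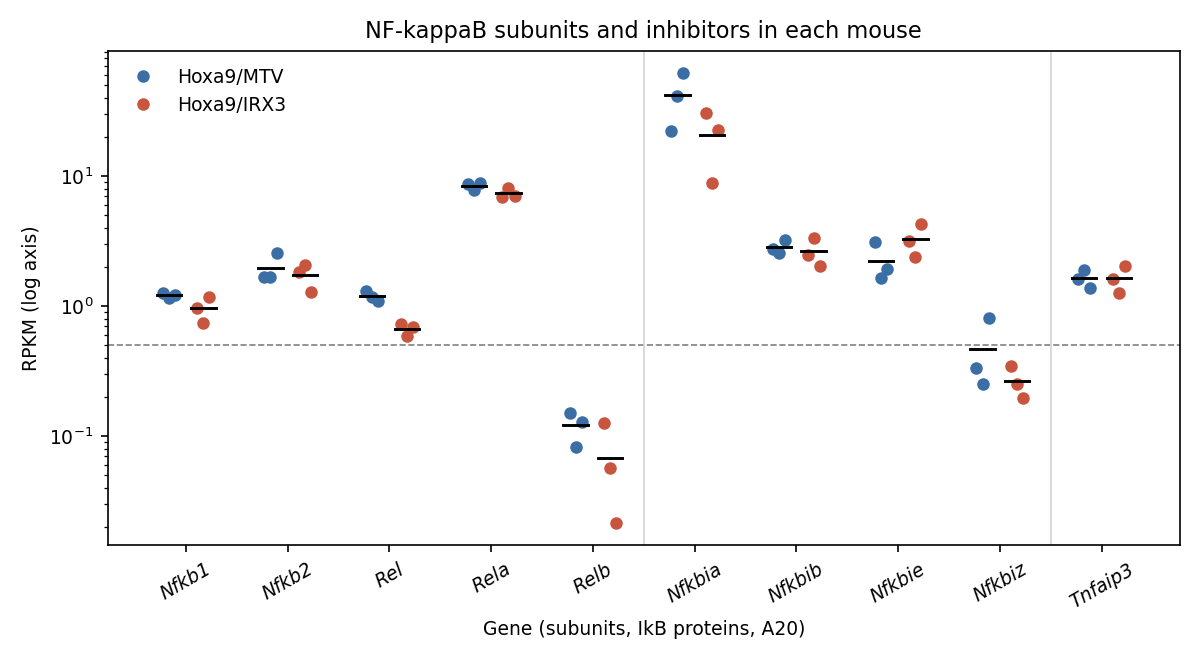
RPKM of the 10 genes on a log axis, with 1 point per mouse, a black bar at each cohort mean and a dashed line at the 0.5 RPKM expression threshold. Blue points are Hoxa9/MTV and red points are Hoxa9/IRX3; the red points lie wholly below the blue ones for Rel alone, all values of Relb lie under the line, and Nfkbia runs from 8.76 to 61.5.

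Among the subunits, Rel (chromosome 11, 23736847 to 23770970, minus strand, GRCm38) was at 1.31, 1.18 and 1.09 RPKM in mice 1.1, 1.2 and 1.4. It was at 0.724, 0.592 and 0.693 RPKM in mice 3.2, 3.3 and 3.5. The highest Hoxa9/IRX3 mouse thus lay below the lowest Hoxa9/MTV mouse, and the SD was 9.46% of the mean in Hoxa9/MTV and 10.3% in Hoxa9/IRX3. These values correspond to 289 to 342 reads per library in Hoxa9/MTV and 163 to 189 in Hoxa9/IRX3. The Hoxa9/MTV mean was 1.78 times the Hoxa9/IRX3 mean, and the change on the log2(RPKM + 0.5) scale, where a pseudocount of 0.5 understates changes of low genes, was −0.53 ± 0.11 (SE; 95% interval −0.80 to −0.26). The change passed an adjusted p of 0.05 (0.0483 by limma with Benjamini-Hochberg adjustment over 9522 genes) but not the 2-fold limit. The exact permutation test of the single gene gave p = 0.1, the smallest that 3 against 3 mice allow. The adjusted p was under 0.05 in 3 of 14 alternative settings that kept the gene, ran up to 0.184, and exceeded 0.05 whichever mouse was left out. In bulk samples fewer cells of a type that expresses Rel and less Rel RNA per cell cannot be told apart.

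Rela (chromosome 19, 5637483 to 5648130, plus strand), which encodes p65, the main transactivating subunit, was at 8.66, 7.77 and 8.86 RPKM in Hoxa9/MTV. In Hoxa9/IRX3 it was at 6.89, 8.08 and 7.04 RPKM. Mouse 3.3 lay above mouse 1.2, so the cohorts overlapped, and Rela was the steadiest of the 10 genes, its highest mouse at 1.29 times its lowest. The log2 difference was −0.19 ± 0.13 (SE, 95% interval −0.49 to 0.11, limma adjusted p = 0.391).

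Nfkb1 (chromosome 3, 135584655 to 135691547, minus strand), the p50 precursor gene, was at 1.25, 1.16 and 1.22 RPKM in Hoxa9/MTV and at 0.959, 0.745 and 1.17 RPKM in Hoxa9/IRX3. Only mouse 3.5 reached the Hoxa9/MTV range, just above its lowest value, and the log2 difference of −0.24 ± 0.14 (SE) had a limma adjusted p of 0.319. Nfkb2 (chromosome 19, 46304320 to 46312385, plus strand), the p52 precursor gene, was at 1.68, 1.69 and 2.56 RPKM in Hoxa9/MTV and at 1.83, 2.08 and 1.28 RPKM in Hoxa9/IRX3. Mouse 1.4 was the highest and mouse 3.5 the lowest, while mice 3.2 and 3.3 lay above mice 1.1 and 1.2. Its log2 difference of −0.15 ± 0.20 (SE) had a limma adjusted p of 0.679.

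Relb (chromosome 7, 19606217 to 19629438, minus strand), the partner of p52 in the noncanonical pathway, was at 0.151, 0.0830 and 0.129 RPKM in Hoxa9/MTV and at 0.126, 0.0571 and 0.0216 RPKM in Hoxa9/IRX3. No mouse reached the 0.5 RPKM required for testing. The values rest on 16 to 31 reads per library in Hoxa9/MTV and on 4 to 26 in Hoxa9/IRX3, and the cohorts overlapped. Fitted without the expression threshold, the log2 difference was −0.13 (limma adjusted p = 0.414).

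Of the IkB genes, Nfkbia (chromosome 12, 55489410 to 55492647, minus strand) encodes IkB-alpha, the inhibitor that NF-kappaB itself induces and that ends a pulse of activity. It was at 22.2, 41.4 and 61.5 RPKM in mice 1.1, 1.2 and 1.4. In mice 3.2, 3.3 and 3.5 it was at 30.3, 8.76 and 22.6 RPKM. Mice 3.2 and 3.5 lay above mouse 1.1, so the cohorts overlapped although their means, 41.7 ± 19.6 and 20.6 ± 10.9 RPKM (SD, n = 3), stood 2.03-fold apart. The log2 difference of −1.05 ± 0.54 (SE) had a 95% interval of −2.34 to 0.23 and a limma adjusted p of 0.277. The difference depended on single mice of both cohorts. It was −0.54 (limma adjusted p = 0.459) without mouse 3.3 and −0.72 (adjusted p = 0.575) without mouse 1.4. It was −1.44 (adjusted p = 0.267) without mouse 1.1 and −1.41 (adjusted p = 0.165) without mouse 3.2.

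Nfkbib (chromosome 7, 28758251 to 28767512, minus strand) encodes IkB-beta, an inhibitor of the same class. It was at 2.72, 2.57 and 3.23 RPKM in Hoxa9/MTV and at 2.49, 3.35 and 2.04 RPKM in Hoxa9/IRX3, where mice 3.3 and 3.5 were the highest and the lowest of all 6. The log2 difference was −0.11 ± 0.18 (SE, limma adjusted p = 0.727). Sirt2, on the opposite strand and at 1.39 to 2.02 RPKM, shares 778 bases with it, and whether the counting used strand is not given in the sources used here.

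Nfkbie (chromosome 17, 45555703 to 45563169, plus strand), the gene of IkB-epsilon, was the 1 tested member with a log2 difference above 0. It was at 3.13, 1.63 and 1.93 RPKM in Hoxa9/MTV and at 3.15, 2.37 and 4.25 RPKM in Hoxa9/IRX3. Mouse 1.1 lay within the Hoxa9/IRX3 range, and the log2 difference of 0.47 ± 0.26 (SE) had a limma adjusted p of 0.313.

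Nfkbiz (chromosome 16, 55811375 to 55838899, minus strand) encodes the inducible nuclear protein IkB-zeta, which acts as a coregulator of secondary response genes. It was at 0.333, 0.254 and 0.815 RPKM in Hoxa9/MTV and at 0.349, 0.252 and 0.196 RPKM in Hoxa9/IRX3. It passed the expression threshold through mouse 1.4 alone, with 217 reads against 43 to 85 in the other 5 libraries, and the remaining mice overlapped. The log2 difference was −0.30 ± 0.24 (SE, limma adjusted p = 0.475).

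Tnfaip3 (chromosome 10, 19000910 to 19015657, minus strand) encodes A20, a feedback inhibitor that edits ubiquitin chains on signaling proteins upstream of the IkB kinases. It was at 1.63, 1.90 and 1.37 RPKM in Hoxa9/MTV and at 1.62, 1.26 and 2.03 RPKM in Hoxa9/IRX3. The cohort means were 1.63 ± 0.264 and 1.64 ± 0.386 RPKM (SD, n = 3), with mouse 3.5 the highest and mouse 3.3 the lowest. The log2 difference of −0.01 ± 0.17 (SE) had a 95% interval of −0.41 to 0.40 and a limma adjusted p of 0.986.

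**Figure D2:**
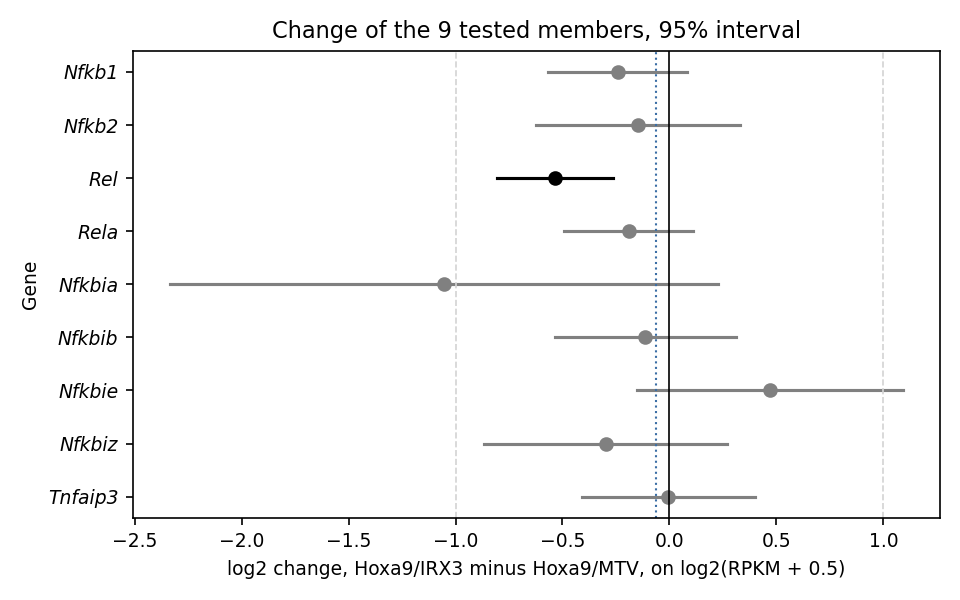
Difference between cohorts on the log2(RPKM + 0.5) scale for the 9 tested members (points) with its 95% interval (lines, not adjusted for multiple genes), with dashed lines at 2-fold and a dotted line at the median of all tested genes. Rel, in black, is the 1 gene with an adjusted p under 0.05, and Nfkbia has the widest interval, from −2.34 to 0.23.

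The counts of members that passed each rule stand here beside the share of all genes that did. For the rules on the adjusted p, counts of 0 or 1 among 9 genes are near the background. Of the 10, 9 passed the expression threshold, and none of the 9 met both an adjusted p under 0.05 and a 2-fold change in limma, against 3.13% of the 9522 genes tested. At an unadjusted p under 0.05, 1 of the 9 passed, against 24.3% of all genes. Voom on recovered reads, with both limits, called none of the 9, against 3.82% of all genes. With the adjusted p alone 1 of the 9 passed, against 5.36% of all genes in either direction and 3.52% lower. The cohorts did not overlap for 1 of the 9, against 33.7% of all genes. By the criterion of the study, an unadjusted p under 0.05 on RPKM with a ratio over 2, none of the 9 was selected, against 6.97% of all genes. The difference was below 0 for 8 of the 9, against 57.5% of all genes, and its median was −0.19, against −0.06 for all genes, while the median size of the change without regard to sign was 0.24 in each. The 95% interval lay inside a 2-fold change for 7 of the 9 tested members, against 73.6% of all genes. Nfkbia and Nfkbie were the 2 whose intervals reached beyond 2-fold. With a pseudocount of 0.1 or with voom the interval lay inside for 5 of the 9, and the share of all genes was not counted there.

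No single mouse order ran through the 10 genes. Mouse 1.4 was the highest of the 6 for Nfkb2, Rela, Nfkbia and Nfkbiz, and mouse 1.1 for Nfkb1, Rel and Relb. Mouse 3.3 was the highest for Nfkbib but the lowest for 4 genes, Nfkb1, Rel, Nfkbia and Tnfaip3. Mouse 3.5 was the highest for Nfkbie and Tnfaip3 and the lowest for Nfkb2, Relb, Nfkbib and Nfkbiz. Mouse 3.2 was the lowest for Rela and mouse 1.2 for Nfkbie. The lowest value was thus in a Hoxa9/IRX3 mouse for 9 of the 10 genes, and the highest in a Hoxa9/MTV mouse for 7. The same shares over all genes were not counted. The median-of-ratios scale was 1.053, 1.01 and 1.061 in mice 1.1, 1.2 and 1.4. It was 1.013, 1.012 and 0.9135 in mice 3.2, 3.3 and 3.5, and its part in these counts was not tested.

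**Figure D3:**
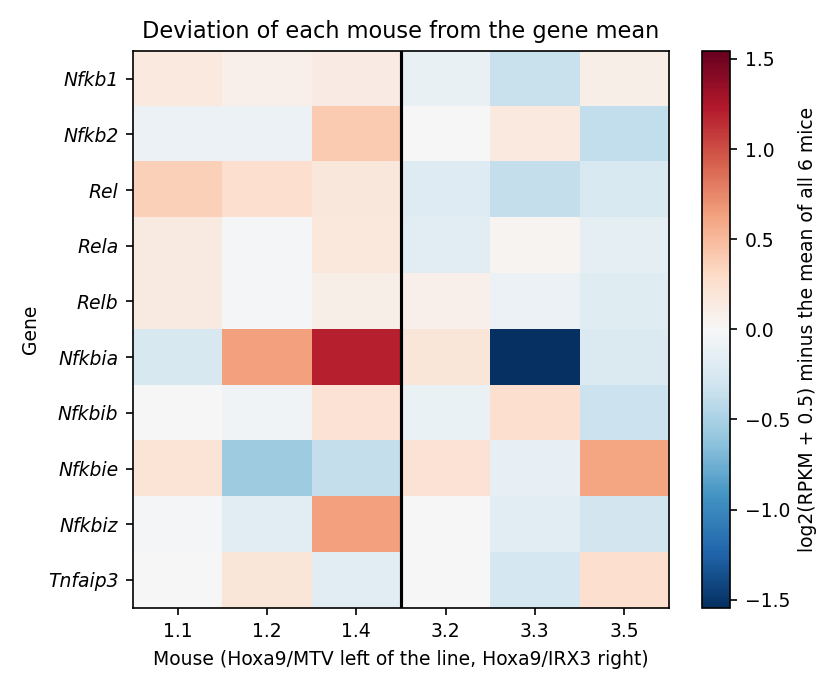
Each mouse's log2(RPKM + 0.5) minus the gene's mean over all 6 mice, with genes as rows and mice as columns, Hoxa9/MTV to the left of the line. Rel is red in all 3 Hoxa9/MTV mice and blue in all 3 Hoxa9/IRX3 mice, and the deepest cells are Nfkbia in mouse 1.4 (1.20) and in mouse 3.3 (−1.55).

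The genes around the members were read from lists of the pathway by role, 107 genes in all of which 82 were tested. An adjusted p under 0.05 was reached by 10 of the 82 (12.2%, against 5.36% of all genes), with 5 higher and 5 lower in Hoxa9/IRX3. Of the 82, 3 also met the 2-fold limit (3.66%, against 3.13%), and 36 had cohorts that did not overlap (43.9%, against 33.7%). The median difference was −0.13 against −0.06 for all genes. Without any one of the 3 Hoxa9/MTV mice none of the 82 had an adjusted p under 0.05, whereas 5 to 9 did without one of the Hoxa9/IRX3 mice.

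Of the ligands, 1 of 5 tested rose and none fell. Tnfsf14 (LIGHT, a tumor necrosis factor family ligand of the lymphotoxin beta receptor) was at 2.86, 1.18 and 3.21 RPKM in Hoxa9/MTV and rose to 8.82, 13.5 and 6.32 RPKM. Its log2 difference was 1.80 ± 0.38 (SE, limma adjusted p = 0.0469). The adjusted p was under 0.05 in 6 of 15 alternative settings, and it was 0.0614 by voom on recovered reads. Cd40lg, the ligand of CD40, was near 0 in Hoxa9/MTV and at 0.161, 0.583 and 0.158 RPKM in Hoxa9/IRX3 (adjusted p = 0.181). Of the receptors, 1 of 5 tested rose and none fell. Il1rap, the accessory chain of the interleukin 1 receptor, rose from 0.303 to 0.320 RPKM to 0.669 to 0.986 RPKM (log2 difference 0.66 ± 0.14, SE, adjusted p = 0.0479). Its adjusted p was under 0.05 in 7 of 14 alternative settings that kept the gene. Tnfrsf14, a receptor of LIGHT, was at 2.60 to 4.396 RPKM in Hoxa9/MTV and 1.60 to 2.15 RPKM in Hoxa9/IRX3 (log2 difference −0.85, adjusted p = 0.0657).

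The adaptors and ubiquitin ligases, which link receptors to kinases, gave no gene past the test among 20. Those with the smallest p in limma were Birc3, an ubiquitin ligase that is itself an NF-kappaB target (log2 difference −0.74, adjusted p = 0.079), and Traf6, the ligase downstream of interleukin 1 and Toll-like receptors (−0.87, adjusted p = 0.0945). The cohorts did not overlap for 8 of the 20, against 33.7% of all genes. At an unadjusted p under 0.05, 5 of the 20 passed, against 24.3% of all genes. Voom on recovered reads gave 0 with an adjusted p under 0.05.

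Of the 12 genes of the kinases and their partner subunits and adaptors, all tested, 2 fell and none rose, and the median difference was −0.27. The cohorts did not overlap for 7 of the 12, against 33.7% of all genes. At an unadjusted limma p under 0.05, 6 of the 12 passed, against 24.3% of all genes. Voom on recovered reads gave 3 with an adjusted p under 0.05. Ikbkb encodes the catalytic IkB kinase subunit of the canonical pathway. It was at 3.70, 3.64 and 3.89 RPKM in Hoxa9/MTV and fell to 1.96, 2.42 and 1.61 RPKM, a log2 difference of −0.78 ± 0.14 (SE, limma adjusted p = 0.0334). Tab2, an adaptor of the kinase TAK1, fell from 6.49 to 6.90 RPKM to 4.16 to 4.58 RPKM (log2 difference −0.57 ± 0.11, SE, adjusted p = 0.0368). Neither pair of ranges overlapped, as for Rel and for 33.7% of all genes. The adjusted p was under 0.05 in 11 of 15 alternative settings for Ikbkb and in 8 of 15 for Tab2.

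Among 8 tested genes of other IkB-like and nuclear regulators none passed in limma or in voom. An unadjusted p under 0.05 was reached by 3 of them, against 24.3% of all genes. Nkiras2, a small G protein that binds IkB, had a log2 difference of −0.57 (limma adjusted p = 0.0858), and Nfkbid, the gene of the nuclear protein IkB-NS, one of −0.59 (adjusted p = 0.171). Of 10 tested deubiquitinases and other inhibitors, the class to which A20 belongs, 2 rose and 1 fell. Otud7b, the deubiquitinase Cezanne, rose from 0.285 to 0.376 RPKM to 0.867 to 1.14 RPKM (log2 difference 0.91 ± 0.13, SE, adjusted p = 0.0175). Rnf11, a ubiquitin ligase that works with A20, rose from 1.77 to 1.90 RPKM to 2.59 to 3.21 RPKM (0.54 ± 0.11, adjusted p = 0.0449). Otulin, which removes linear ubiquitin chains, fell from 1.36 to 1.62 RPKM to 0.794 to 0.893 RPKM (−0.53 ± 0.11, adjusted p = 0.0436). In alternative settings the adjusted p was under 0.05 in 11 of 14 for Otud7b, 8 of 15 for Rnf11 and 5 of 15 for Otulin.

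Among 27 tested target genes of NF-kappaB, 1 rose and 2 fell, with a median difference of 0.01. Vcam1, a cell adhesion molecule, was at 1.99, 3.21 and 2.98 RPKM in Hoxa9/MTV and rose to 30.6, 15.6 and 49.3 RPKM (log2 difference 3.20 ± 0.41, SE, limma adjusted p = 0.0124). Icam1, an adhesion molecule of the same class, fell from 1.30 to 1.89 RPKM to 0.431 to 0.820 RPKM (−0.88 ± 0.18, adjusted p = 0.046). Nlrp3, the sensor of an inflammasome, fell from 0.797 to 1.99 RPKM to 0.0442 to 0.0978 RPKM (−1.54 ± 0.27, adjusted p = 0.0289). By voom on recovered reads 1 of the 27 passed, Vcam1, while Nlrp3 and Icam1 had adjusted p of 0.054 and 0.0611. With no filter on expression these were 0.0581 and 0.0858, and Icam1 was under 0.05 in 4 of 15 alternative settings.

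**Figure D4:**
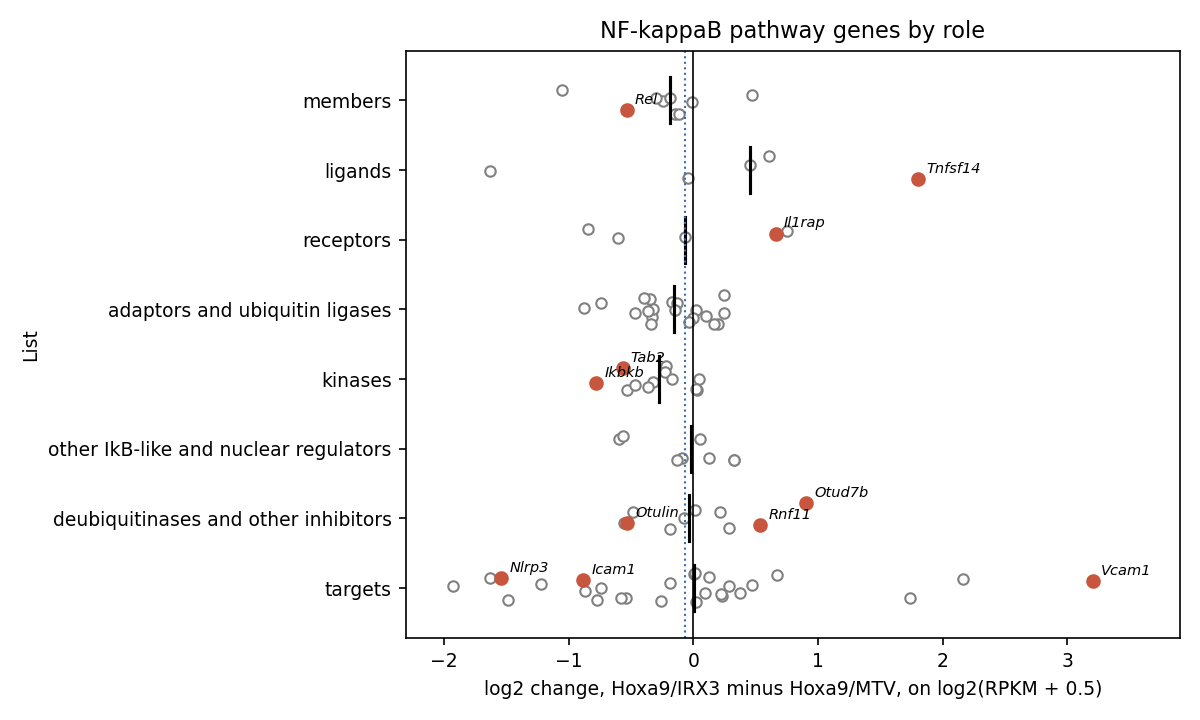
Difference between cohorts on the log2(RPKM + 0.5) scale for each tested gene of the members and of the 7 pathway lists, with a black bar at the list median and a dotted line at the median of all genes (vertical scatter within a row is only for legibility). Filled red points have an adjusted p under 0.05 and are named; they lie on both sides of 0, with Vcam1 farthest to the right at 3.20.

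The pattern of Rel over the 6 mice was closest to those of Hbp1, Csad and Mtmr6 among 9513 genes that are not members. The root mean square distances of their centered log2 values from those of Rel were 0.0441, 0.0514 and 0.0599. Hbp1, for example, was at 4.01, 4.02 and 3.50 RPKM in Hoxa9/MTV and at 2.74, 2.39 and 2.498 RPKM in Hoxa9/IRX3. With 6 mice this likeness is a description.

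Other groups of genes differed between the same cohorts as Rel. Beside their counts, 5.36% of all genes had an adjusted p under 0.05, and 3.52% had it and were lower. Of the immediate early genes, which respond rapidly to many signals, 4 of 20 tested fell and none rose, and their median difference was −1.20. Their summed level was 954 to 1736 RPKM in Hoxa9/MTV and 301 to 679 RPKM in Hoxa9/IRX3. Fos and Klf2 were among those that fell (log2 differences −2.81 and −3.21, limma adjusted p = 0.0444 and 0.0310), with Klf4 (−2.24) and Nr4a1 (−1.49). By voom on recovered reads 2 of the list passed, Fos and Klf2, while Klf4 and Nr4a1 had adjusted p of 0.0615 and 0.145. With no filter on expression none of these 4 genes passed (limma adjusted p = 0.0701 to 0.0892). Of the monocyte and macrophage markers 3 of 8 tested fell, with sums of 132 to 160 and 30.03 to 77.5 RPKM. Cd68, with the highest Hoxa9/MTV mean of these, was at 67.9 to 87.3 RPKM in Hoxa9/MTV and 6.72 to 18.3 RPKM in Hoxa9/IRX3. The cohorts overlapped for Cd14, highest in mouse 3.2 (50.8 RPKM), and for Csf1r, highest in mouse 3.3 (6.43 RPKM). The sums without Cd68 were not counted. Of the neutrophil markers 3 of 15 rose, with sums of 3146 to 4631 and 6940 to 7608 RPKM. Elane, the primary granule protease with the highest mean of that list, was at 614 to 1053 RPKM in Hoxa9/MTV and 2237 to 3332 RPKM in Hoxa9/IRX3. Without Elane the sums were 2531 to 3578 and 3608 to 5371 RPKM, and 3 of the list had a difference below 0 that did not pass, Ngp among them (log2 difference −0.13, adjusted p = 0.87). Their part in the values of Rel and of the other members was not tested.

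The other marker lists were low or mixed. Of mast cell and basophil markers 2 of 4 tested fell, with sums of 14.5 to 20.3 and 4.51 to 7.31 RPKM, and Fcer1a, Tpsb2 and Cma1 were listed at 0 in every mouse. Of dendritic cell and MHC class II markers 1 of 4 fell, with sums of 3.98 to 6.11 and 0.171 to 5.99 RPKM and Ccr7 at 0. Of B cell markers 1 of 3, Cd79b, fell, while Igll1 was at 0.0312 to 0.102 and 1.19 to 38.4 RPKM (log2 difference 3.92, limma adjusted p = 0.0776) and Vpreb1 also had higher values without overlap. The B cell sums were 6.45 to 7.33 and 2.01 to 43.4 RPKM, with Ms4a1 and Pax5 at 0. The T and NK cell list held 1 tested gene, Nkg7, which made up nearly all of its sums of 22.6 to 33.01 and 14.9 to 482 RPKM, while Cd3d, Trac, Ncr1 and Gzma were at 0. No erythroid marker was tested, and their sum was at most 0.303 RPKM in any mouse. Where these lists differ by mouse, their part in the members' values was not tested.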

How the data were processed

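The authors prepared strand-specific polyA libraries and aligned paired reads with Bowtie2 (version 2.2.1) to GRCm38. They filtered alignments with SAMtools (0.1.19). The deposited values are RPKM per Ensembl gene as the authors computed them, and they divide by the whole gene with its introns. From these values, genes were annotated with GENCODE M21, and protein-coding genes above 0.5 RPKM in at least 1 of 6 mice (9522 genes) were tested. The two-sided test was limma (3.58.1, in R 4.3.3, with eBayes and its trend option) on log2(RPKM + 0.5), with Benjamini-Hochberg adjustment. A gene was called where the adjusted p was below 0.05 and the change reached 2-fold. Exact permutation tests were run for single genes. Read numbers of the members were recovered from the steps between values, with a gene length that gave whole reads within 0.01. Voom and the fit per kilobase of exon instead used the GENCODE M21 length for every gene. That length gave whole reads in all 6 libraries for 65.0% of tested genes. For Rel it was 34124 bases, against 29457 recovered, so the read numbers that voom used for such genes were scaled. The fit was tested on simulated data.

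The members, lists and tests were chosen with earlier results of these data known. Each mouse was 1 replicate, with 3 mice per cohort. The limma p-values set the difference between cohorts against the spread between mice, moderated over all tested genes. All 10 members were named. Of each pathway list and of the immediate early list, genes with an adjusted p under 0.05 were named (at most 4), or the 2 with the smallest p where fewer than 2 passed. Of the other marker lists some genes were named as examples, besides genes at 0, and not under this rule. Itgam and Ly6c1, listed with the sort markers, were left out. Alternatives were other pseudocounts (0.1 and 1), no filter or a mean of at least 1 RPKM, no variance trend, median-of-ratios scaling, quantile normalization, exon lengths, voom on recovered reads, the study's criterion, and leaving out each mouse.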

Additional observations from a re-analysis of the deposited data

How the results depend on the processing

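No member was called with both limits under any of the 16 alternatives. With the adjusted p alone, Rel was the 1 member that passed, and 0 passed with no filter on expression, with a mean of at least 1 RPKM (which removed Rel, leaving 0 members whose cohorts did not overlap), without a variance trend, under median-of-ratios scaling, under quantile normalization, per kilobase of exon, or with any mouse left out. Apart from removal of Rel by the filter, the cause was not tested. Rel kept its sign under every alternative that tested it, with differences between −0.84 and −0.39. The number of members whose cohorts did not overlap was 1 to 4 with a mouse left out, where 38.9% to 47.8% of all genes did not overlap. Pathway genes called with both limits numbered 3, against 5 with a pseudocount of 0.1, 1 with no filter, 6 per kilobase of exon, 7 by the study's criterion and 0 to 5 with a mouse left out. Pathway genes with an adjusted p under 0.05 numbered 10, against 3 with no filter, 5 at a mean of at least 1 RPKM and 0 to 9 with a mouse left out. All genes called numbered 298 (105 higher and 193 lower), against 175 with no filter, 552 per kilobase of exon and 664 by the study's criterion. They numbered 61 to 76 without a Hoxa9/MTV mouse and 297 to 415 without a Hoxa9/IRX3 mouse. The difference of Tnfaip3 turned positive under median-of-ratios scaling (0.064), quantile normalization (0.087) and the study's criterion (0.0031), and ran from −0.14 to 0.13 with a mouse left out. With a mouse left out, Nfkb2 ran from −0.26 to 0.014 and Nfkbib from −0.27 to 0.026. Scaling moved the median of all genes from −0.06 to 0.01 and 0.02. No paired analysis was possible because the mouse numbers name different animals in each cohort.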

Other observations

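One value was seen only after the list of ligands had been tested. Tnf, the ligand that gives the tumor necrosis factor family its name, was at 6.54, 7.97 and 77.5 RPKM in mice 1.1, 1.2 and 1.4 and at 18.7, 3.42 and 1.57 RPKM in mice 3.2, 3.3 and 3.5 (log2 difference −1.63 ± 1.15, SE, limma adjusted p = 0.416). Mouse 1.4, with the highest Tnf, was also the highest for 4 of the 10 members, Nfkbia, Nfkb2, Nfkbiz and Rela. Mouse 1.1 was the highest for Nfkb1, Rel and Relb, and Tnfaip3 was lower in mouse 1.4 (1.37 RPKM) than in mice 1.1 and 1.2. Of the immediate early genes, Junb and Egr1 were also highest in mouse 1.4, and Fos and Jun in mouse 1.2. The share of all genes highest in mouse 1.4 was not counted. In Hoxa9/IRX3 the highest mouse was 3.2 for Tnf, Nfkbia and Nfkbiz but 3.3 for Nfkb2 and Rela. Cxcl10, a chemokine among the targets, was at 0.1004, 0.107 and 0.0459 RPKM in Hoxa9/MTV and at 0.351, 2.76 and 2.17 RPKM in Hoxa9/IRX3 (log2 difference 1.74 ± 0.48, SE, limma adjusted p = 0.0895). Tnf and Cxcl10 were chosen after their values were seen.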
